A study of Mus musculus with 34 samples.

Results

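Genes that cells switch on when oxygen is short were followed in cultured mouse CD4 T cells. The members are 33 genes of the hypoxia response that lie outside glucose uptake and glycolysis, taken as a list of symbols and found by their numeric gene identifiers among the 27179 identifiers of the count tables. All 33 were found, and all 33 passed the filter on low counts. In the samples, naive CD4 T cells of C57BL/6 mice grew for 3.5 days on plates coated with antibodies against CD3 and CD28, which stimulate the T cell receptor and its costimulatory receptor, and were sorted by flow cytometry before RNA isolation. The 34 libraries carry a culture code followed by a number. TfhA_4e4 has 5 libraries, Tfh5_4e4 has 6, and the code Tfh2 comes with Tfh2_1e4 (6), Tfh2_2e4 (5), Tfh2_4e4 (6) and Tfh2_6e4 (6). Every group shares the strain, the coated antibodies and the culture time, and the labels name no genotype or age. What the codes mean, which unit the number has and which cells the sort kept are not given in the labels, so the groups keep their label names. The series title concerns TGF-beta, c-Maf and the choice between follicular helper and TH17 cells.

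When oxygen is plentiful, prolyl hydroxylases mark the alpha subunits of the hypoxia-inducible factors (HIF) and the VHL ubiquitin ligase removes them. When oxygen falls, HIF-1 alpha accumulates, pairs with ARNT and binds short sites with the core ACGTG or GCGTG near its target genes. In T cells HIF-1 alpha also accumulates after receptor stimulation, and it is known for its part in glycolysis and in TH17 differentiation. The 33 genes are targets or reporters of this response with different jobs. They encode secreted proteins (Adm, Vegfa, Stc2, Mif and Nampt), enzymes that modify collagen and peptides (P4ha1, P4ha2, Plod1, Plod2 and Pam) and mitochondrial proteins (Bnip3, Bnip3l, Ak4, Higd1a and Fam162a). They also encode oxygenases that act on chromatin and proteins (Kdm3a, Kdm4b, Kdm4c, Kdm7a and Jmjd6), transcription regulators (Mxi1, Cited2, Sap30, Rbpj, Ankrd37 and Zfp395) and proteins of stress and feedback (Ndrg1, Ddit4, Ier3, Errfi1, Hilpda, Ankzf1 and Wsb1).

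The sequence before the start of many of these genes holds the HIF core. RefSeq promoters (GRCm38.p6, the patch release of the mm10 assembly named in the submitters' processing notes) were matched for 28 of the 33 genes, with 42 annotated starts. Within 250 bases before the start, ACGTG or its reverse complement CACGT was present at 22 of the 42 starts, or 52.4%. The same letters were present at 22.2% of the 11263 starts of the genes tested for expression and at 16.6% of all 32851 starts. Counted per gene, 21 of the 28 (75.0%) had at least 1 match before a start, against 25.9% of the genes tested. The members had 42 starts for 28 genes and the genes tested 11263 for 8853, and more starts give more room for a match. The match of Vegfa lies before a start inside the gene, and the window before its 5′ start has none. The genes were listed as targets or reporters of HIF, so a higher share may be built into the list. GCGTG, searched on both strands in the same way, was at 59.5% of the members' starts, against 45.7% of the starts of genes tested. CACGTG, which contains ACGTG on both strands, was at 11.9% and 8.49%. A match is a string of letters and not evidence of binding. The sequences of 4 members that have a match are shown as examples. P4ha2 and Bnip3 rose steeply and then flattened within Tfh2, Kdm7a was lower in TfhA_4e4 than in Tfh5_4e4, and Fam162a was higher there. Each run is the 250 bases before the annotated start, read 5′ to 3′ on the gene's strand, with ACGTG or CACGT in capitals. P4ha2 lies on chr11:54100674-54100923 (plus strand), Bnip3 on chr7:138909507-138909756 (minus strand), Kdm7a on chr6:39206774-39207023 (minus strand) and Fam162a on chr16:36071562-36071811 (minus strand).
P4ha2: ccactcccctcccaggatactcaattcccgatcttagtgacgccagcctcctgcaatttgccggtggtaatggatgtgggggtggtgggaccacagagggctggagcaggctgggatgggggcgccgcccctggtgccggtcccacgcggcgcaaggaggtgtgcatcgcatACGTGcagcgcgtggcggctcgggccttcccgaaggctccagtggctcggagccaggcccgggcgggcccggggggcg
Bnip3: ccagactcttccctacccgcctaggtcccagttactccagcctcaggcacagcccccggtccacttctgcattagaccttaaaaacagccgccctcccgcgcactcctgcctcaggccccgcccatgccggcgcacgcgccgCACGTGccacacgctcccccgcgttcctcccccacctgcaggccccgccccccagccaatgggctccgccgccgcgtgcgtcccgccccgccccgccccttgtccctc
Kdm7a: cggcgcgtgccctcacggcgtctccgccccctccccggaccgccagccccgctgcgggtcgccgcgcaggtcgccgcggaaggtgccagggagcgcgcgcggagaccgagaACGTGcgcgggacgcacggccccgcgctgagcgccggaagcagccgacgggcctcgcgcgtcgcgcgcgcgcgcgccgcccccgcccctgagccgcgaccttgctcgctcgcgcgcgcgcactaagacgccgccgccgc
Fam162a: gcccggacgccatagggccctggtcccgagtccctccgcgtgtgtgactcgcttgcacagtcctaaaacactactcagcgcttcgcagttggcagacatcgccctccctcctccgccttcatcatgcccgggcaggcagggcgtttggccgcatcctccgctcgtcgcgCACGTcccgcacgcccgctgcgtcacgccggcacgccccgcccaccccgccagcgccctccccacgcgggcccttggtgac

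The match begins 78 bases before the start of P4ha2, 139 before that of Kdm7a and 81 before that of Fam162a. In Bnip3 the letters read as ACGTG on both strands, 108 and 107 bases before the start. Adm, the gene with the steepest change below, had none in this window. Stc2 and Mif, both higher in TfhA_4e4 than in Tfh5_4e4, also had none, as did Higd1a, Kdm3a, Pam and Plod1. A missing match says nothing about the regulation of a gene elsewhere.

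The libraries held between 4481509 and 9934245 counts, and 2 identifiers without a symbol took 48.3% of all counts. Levels below are in CPM, that is, counts relative to the normalized size of their library. The libraries are of the 3′ type and CPM is not divided by transcript length. No level is compared between genes. A gene is called higher or lower when its edgeR quasi-likelihood test, adjusted by Benjamini and Hochberg over the 11357 genes tested, is below 0.05. Nothing in the labels ties a replicate to its own mouse or culture well, so a p-value here reflects the scatter among these samples, and that scatter may be technical. In bulk RNA a change in the number of expressing cells and a change of RNA per cell cannot be told apart. All 7 CD4 T cell marker genes were present in every group, with summed levels of 1490 to 1607 CPM in TfhA_4e4, 1744 to 2001 in Tfh5_4e4, and over the Tfh2 series 1444 to 1691 CPM at 1e4, 1556 to 1838 at 2e4, 1803 to 2032 at 4e4 and 1775 to 2092 at 6e4. Of these 7 genes, 5 were called higher and 1 lower with the number on the Tfh2 labels, against 24.1% and 22.8% of all genes. In TfhA_4e4 against Tfh2_4e4, 3 were called lower and 0 higher, against 17.4% and 15.5%. These directions were those of most called members described below. In TfhA_4e4 against Tfh2_1e4, where most members were higher, 0 of the 7 were called higher and 1 lower, against 21.7% and 20% of all genes. In Tfh5_4e4 against Tfh2_4e4, 0 of the 7 were called, against 3.11%. B cell, myeloid and red cell marker lists summed to at most 2.82 CPM in any library, CD8 T cell markers to at most 15.5 CPM and NK cell markers to at most 16.6 CPM. The 1 NK marker that passed the filter on low counts had a slope of 0.32 within Tfh2 and a log2 fold change of -1.21 in TfhA_4e4 against Tfh2_4e4, both called. The part of these markers in the members' values was not tested. Mitochondrial rRNA took 14.8% ± 2.19 (SD, n = 5) of the counts outside these 2 identifiers in TfhA_4e4, 9.81% ± 1.24 (n = 6) in Tfh5_4e4 and 8.41% ± 1.48 (n = 6), 9.38% ± 0.685 (n = 5), 9.92% ± 0.989 (n = 6) and 10.2% ± 1.2 (n = 6) in Tfh2_1e4, Tfh2_2e4, Tfh2_4e4 and Tfh2_6e4. Cth, a cysteine synthesis gene with 84 to 161 counts in TfhA_4e4 libraries, had 39 counts (3.61 CPM) in Tfh2_2e4 replicate 6 and 0 to 7 in the rest of that group. In Tfh2_4e4 replicate 3 it had 21 counts (2.46 CPM), close to the 14 counts (1.85 CPM) of replicate 4. Chac1, an enzyme that degrades glutathione and was likewise high in TfhA_4e4, had 25 counts in Tfh2_4e4 replicate 3 and 0 to 5 in the rest of that group, but Tfh2_2e4 replicate 6 (1.76 CPM) was below replicate 1 (2.75 CPM) and replicate 4 (1.83 CPM) of its group.

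Within Tfh2, most of the genes rose with the number on the label. The slope is the log2 change per doubling of that number, fitted through the means of the 4 groups. It was called higher for 28 of the 33 genes and lower for 2, with a median of 0.48 per doubling, while over all genes tested 46.9% were called (24.1% higher and 22.8% lower) and the median slope was -0.0027. Between the ends of the series, Tfh2_6e4 against Tfh2_1e4, 27 were higher and 1 was lower, with a median log2 fold change of 1.22. Over all genes tested 43% were called in that comparison, 22.3% higher and 20.7% lower. Group means of 25 of the 28 rising genes went up at each of the 3 steps. All 5 secreted proteins, all 5 mitochondrial proteins and all 5 oxygenases rose, as did 5 of 6 transcription regulators and 6 of 7 stress and feedback genes. Of the collagen and peptide enzymes 2 rose (P4ha1 and P4ha2) and 2 fell (Plod1 and Plod2). The slope of Cited2, Pam and Wsb1 was not called. Some of these calls were close to the threshold, and in the 23 fits that each left out 1 Tfh2 library the slope of Rbpj (0.09, adjusted p = 0.0228, edgeR) was lost 13 times and that of Kdm4c (0.25, adjusted p = 0.0228) 3 times. The mitochondrial rRNA share moved with the number on the label, and both mitochondrial rRNA genes were called higher for the slope. With that share as a covariate 26 members were higher and 1 was lower. The slopes of Rbpj (0.06), Kdm4c (0.22) and Plod1 (-0.23) were then no longer called. Over all genes 5331 slopes were called without that covariate and 4971 with it.

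**Figure D1:**
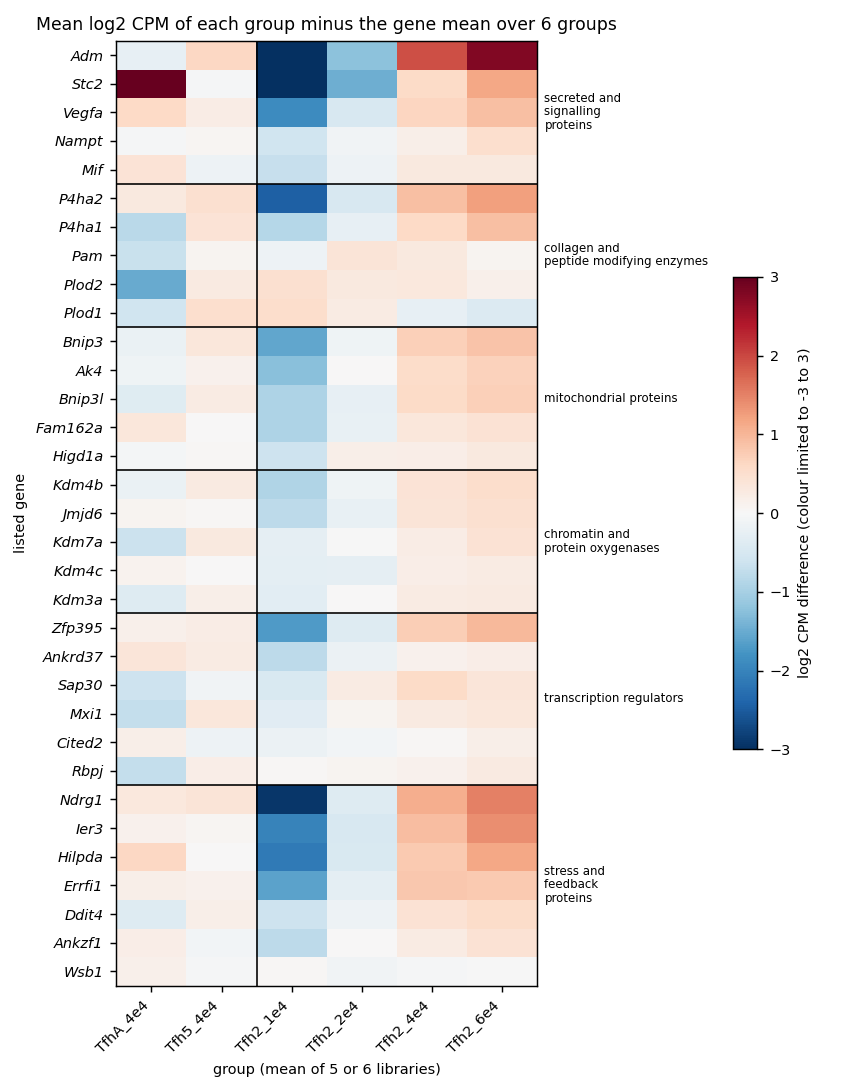
Mean log2 CPM of each of 6 groups (columns, 5 or 6 libraries each) for the 33 genes (rows, grouped by role), as the difference from the gene's mean over the groups, with red higher and blue lower. From Tfh2_1e4 to Tfh2_6e4 the colours of 28 genes turn towards red, and the TfhA_4e4 and Tfh5_4e4 columns mostly hold intermediate colours, with Stc2 and Plod2 in TfhA_4e4 at the 2 extremes.

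Among the secreted proteins, Adm (identifier 11535, GRCm38.p6 chromosome 7, 110627657 to 110629820) changed most. It encodes adrenomedullin, a peptide hormone that widens blood vessels. Adm had 6.16, 3.93, 1.16, 2.04 and 3.29 CPM in the TfhA_4e4 libraries, and its lowest, median and highest values in Tfh5_4e4 were 4.07, 5.21 and 7.85 CPM. In the Tfh2 series these 3 values were 0, 0.104 and 0.589 CPM in Tfh2_1e4, 9.61, 13.7 and 24.2 in Tfh2_4e4 and 15.1, 24.7 and 38.3 in Tfh2_6e4, and the 5 Tfh2_2e4 libraries had 0.687, 1.15, 0.703, 3.97 and 2.13 CPM. All Tfh2_4e4 and Tfh2_6e4 libraries lay above all libraries of the other 4 groups. The slope was 2.76 per doubling (SE 0.173, edgeR adjusted p = 7.32e-18). In Tfh2_1e4 the gene rested on 11 counts in all, with 3 of 6 libraries at 0, so the ratio of Tfh2_6e4 to Tfh2_1e4 is best given by its counts, 132 times with a 95% counting interval of 73.4 to 265. Intervals of this kind cover counting error only.

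Stc2 (identifier 20856, chromosome 11, 31359441 to 31370061) encodes stanniocalcin 2, a secreted glycoprotein that the unfolded protein and amino acid responses also induce. It was the one member whose TfhA_4e4 libraries all lay above every library of the other groups, at 19.9, 22.4, 13.9, 24.7 and 22.6 CPM. In Tfh5_4e4 its lowest, median and highest values were 0.954, 1.89 and 3.996 CPM. They were 0, 0 and 0.392 CPM in Tfh2_1e4, 1.13, 2.89 and 6.45 in Tfh2_4e4 and 3.01, 4.53 and 7.61 in Tfh2_6e4. The Tfh2_2e4 libraries had 0.412, 0.897, 0.703, 0 and 4.08 CPM, and the last is replicate 6, the library of that group with the most Cth. The slope was 2.11 (SE 0.235, edgeR adjusted p = 3.17e-10). Its first step, 3.74 against Tfh2_1e4 (adjusted p = 0.000544), was no longer called without that library, at 2.42. The second step, 1.36 and not called with all libraries, was called without it, at 2.65 (edgeR adjusted p = 0.000471). Against Tfh2_1e4, with 5 counts in 6 libraries, the counts were 242 times higher in TfhA_4e4 (95% counting interval 103 to 747) and 54.9 times higher in Tfh2_6e4 (23.1 to 171).

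Vegfa (identifier 22339, chromosome 17, 46016993 to 46032377), the growth factor for blood vessels, had 56.3, 57.2, 36.8, 58.4 and 41.1 CPM in TfhA_4e4 and 34.8, 36.6 and 46.0 CPM (lowest, median and highest) in Tfh5_4e4. Within Tfh2 the lowest, median and highest were 3.84, 9.68 and 11.8 CPM at 1e4, 35.8, 50.3 and 66.7 at 4e4 and 51.8, 61.1 and 72.3 at 6e4, with 15.8, 25.8, 21.5, 28.0 and 26.0 CPM in the 2e4 libraries. No Tfh2_1e4 library reached the lowest Tfh2_2e4 library, and no Tfh2_2e4 library reached the lowest Tfh2_4e4 library. The slope was 1.09 (SE 0.0639, edgeR adjusted p = 8.52e-19).

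Mif (identifier 17319, chromosome 10, 75859353 to 75860277) encodes a cytokine-like protein. Its TfhA_4e4 libraries had 1402, 1271, 1517, 1230 and 1205 CPM, while Tfh5_4e4 had 771.9, 913.5 and 967.6 CPM (lowest, median and highest). In Tfh2 these values were 551.2, 608.9 and 725.6 CPM at 1e4, 1007, 1256 and 1342 at 4e4 and 1040, 1252 and 1412 at 6e4, and the 2e4 libraries had 818.2, 1044, 794.8, 974.1 and 918.0 CPM. Every TfhA_4e4 library was above every Tfh5_4e4 library, and the Tfh2_4e4 and Tfh2_6e4 ranges overlapped. Its slope of 0.40 was among the smaller ones (SE 0.0326, edgeR adjusted p = 4.29e-14). The slope of Nampt, the enzyme that recycles NAD and is also secreted, was 0.40 as well (edgeR adjusted p = 4.47e-07).

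The enzymes that modify collagen split by family. P4ha1 and P4ha2 encode the catalytic subunits of prolyl 4-hydroxylase, and Plod1 and Plod2 encode lysyl hydroxylases. P4ha2 (identifier 18452, chromosome 11, 54100924 to 54131668) had 32.4, 35.2, 31.0, 32.9 and 22.8 CPM in TfhA_4e4 and 29.4, 35.0 and 41.7 CPM (lowest, median and highest) in Tfh5_4e4, so these 2 groups overlapped. Its Tfh2 values were 3.29, 4.33 and 6.47 CPM at 1e4, 37.7, 48.3 and 54.4 at 4e4 and 41.9, 61.5 and 63.8 at 6e4, with 12.4, 18.8, 25.5, 19.9 and 15.6 CPM at 2e4. The slope was 1.45 (SE 0.0617, edgeR adjusted p = 1.58e-23), and only the 4e4 and 6e4 ranges overlapped.

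P4ha1 (identifier 18451, chromosome 10, 59323197 to 59373304) had 35.2, 38.9, 31.5, 33.8 and 35.2 CPM in TfhA_4e4, and 71.1, 81.0 and 95.1 CPM (lowest, median and highest) in Tfh5_4e4. Within Tfh2 it had 23.6, 35.5 and 41.7 CPM at 1e4, 46.1, 55.1, 55.8, 54.5 and 46.2 at 2e4, 75.2, 91.5 and 114 at 4e4 and 94.6, 117 and 129 at 6e4. Its TfhA_4e4 libraries thus stood within the Tfh2_1e4 range and below every library of the other 4 groups. The slope was 0.70 (SE 0.0419, edgeR adjusted p = 1.64e-18).

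Plod2 (identifier 26432, chromosome 9, 92539636 to 92608428) went the other way. It had 36.4, 24.4, 24.9, 26.3 and 28.2 CPM in TfhA_4e4, and its lowest, median and highest were 74.1, 94.8 and 119 CPM in Tfh5_4e4. They were 95.7, 111 and 118 CPM in Tfh2_1e4, 79.5, 103 and 116 in Tfh2_4e4 and 72.8, 87.5 and 102 in Tfh2_6e4, with 119, 109, 92.4, 98.1 and 75.8 CPM in Tfh2_2e4. The Tfh2 groups overlapped, and every TfhA_4e4 library was below every other library, which among the 33 genes was otherwise true of Rbpj. Its slope of -0.11 was called lower (SE 0.0407, edgeR adjusted p = 0.0307).

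Plod1 (identifier 18822, chromosome 4, 147909753 to 147936776) was counted sparsely, with 2.58, 3.11, 1.82, 0.718 and 3.76 CPM in TfhA_4e4 and 3.36, 4.25 and 8.48 CPM (lowest, median and highest) in Tfh5_4e4. Its Tfh2 values were 2.93, 4.98 and 6.02 CPM at 1e4, 3.85, 3.20, 3.37, 6.43 and 3.24 at 2e4, 1.45, 2.45 and 6.39 at 4e4 and 1.01, 2.57 and 4.31 at 6e4. All groups overlapped with at least 1 other group, and the slope of -0.32 (SE 0.129, edgeR adjusted p = 0.0373) was lost in 5 of the 23 fits without 1 Tfh2 library. Pam, which amidates peptide hormones such as adrenomedullin, had group means of 0.881 to 1.78 CPM and was called in none of the 11 comparisons. Of 6 further tested genes of collagen hydroxylation, P4hb, the partner subunit of the prolyl hydroxylase, rose (0.43) and P3h4 fell (-0.31), and the other 4 were not called for the slope, for which 46.9% of all genes were called. Fibroblast and endothelial markers were looked at because collagen enzymes are abundant in such cells. Col1a2 and Cdh5 had 0 counts in every group. The 5 markers summed to 6.94 to 15.9 CPM in TfhA_4e4, 31.4 to 47.6 in Tfh5_4e4, and over the Tfh2 series 27.2 to 39.5 CPM at 1e4, 19.0 to 39.6 at 2e4, 41.6 to 60.4 at 4e4 and 41.7 to 59.6 at 6e4. The 1 of them that passed the filter on low counts had a slope of 0.30 and a log2 fold change of -2.29 in TfhA_4e4 against Tfh2_4e4, both called, and the part of these markers in the values was not tested.

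All 5 mitochondrial proteins rose within Tfh2. Bnip3 and Bnip3l encode receptors on the outer mitochondrial membrane that mark mitochondria for removal by autophagy. Bnip3 (identifier 12176, chromosome 7, 138890836 to 138909506) had 175.3, 174.8, 175.7, 183.3 and 148.0 CPM in TfhA_4e4 and 216.9, 254.9 and 273.6 CPM (lowest, median and highest) in Tfh5_4e4. Its Tfh2 values were 37.9, 70.8 and 95.2 CPM at 1e4, 148.9, 199.7, 176.5, 228.6 and 149.8 at 2e4, 300.7, 324.7 and 340.2 at 4e4 and 330.3, 348.5 and 389.0 at 6e4. The TfhA_4e4 libraries lay below every Tfh5_4e4 and Tfh2_4e4 library and within or next to the Tfh2_2e4 range. The slope was 0.93 (SE 0.0463, edgeR adjusted p = 2.96e-21). The slopes of the others were 0.72 for Ak4, a mitochondrial adenylate kinase, 0.66 for Bnip3l, 0.54 for Fam162a, and 0.33 for Higd1a, a protein that associates with the respiratory chain. Of 11 other mitophagy genes tested, 3 rose (Gabarapl1, Pink1 and Sqstm1, by 0.35, 0.19 and 0.19) and Map1lc3b fell (-0.17). Over all genes 46.9% were called for the slope, and the median slope of the 11 was -0.05, against 0.48 for the 33 members.

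The median slope of the 5 oxygenases was 0.27, against 0.48 over all 33 genes. The slopes were 0.56 for Kdm4b, 0.51 for Jmjd6, 0.27 for Kdm7a, 0.25 for Kdm4c and 0.24 for Kdm3a. The Kdm genes encode histone demethylases of the jumonji class, enzymes that use oxygen directly, and Jmjd6 encodes a lysyl hydroxylase of splicing proteins. Of 14 other jumonji genes tested, 7 rose and 0 fell, against 24.1% of all genes called higher and 22.8% called lower, and their median slope was 0.11. Kdm5b (0.39), Kdm5c (0.33) and Kdm5a (0.26) had the largest slopes of these. Among the transcription regulators the steepest was Zfp395 (identifier 380912, chromosome 14, 65358676 to 65398930). It had 10.3, 9.73, 6.46, 5.99 and 8.69 CPM in TfhA_4e4 and 5.31, 9.21 and 11.8 CPM (lowest, median and highest) in Tfh5_4e4, and the ranges of these codes overlapped. Within Tfh2 it had 1.08, 2.24 and 3.46 CPM at 1e4, 3.99, 6.53, 6.75, 5.48 and 5.37 at 2e4, 10.2, 11.3 and 15.6 at 4e4 and 12.7, 14.0 and 18.1 at 6e4. The slope was 1.06 (SE 0.0839, edgeR adjusted p = 1.39e-14). Ankrd37, a small ankyrin repeat protein, had a slope of 0.39. Sap30, a subunit of the Sin3 histone deacetylase complex, had 0.33, and Mxi1, an antagonist of Myc, had 0.25.

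Of the stress and feedback genes, Ndrg1, Ier3 and Hilpda changed most. Ndrg1 (identifier 17988, chromosome 15, 66929318 to 66969641), a stress-induced cytoplasmic protein long used as a hypoxia marker, had 110.1, 126.7, 103.7, 110.3 and 77.3 CPM in TfhA_4e4 and 85.1, 117.6 and 123.2 CPM (lowest, median and highest) in Tfh5_4e4. Within Tfh2 it had 6.02, 11.5 and 16.1 CPM at 1e4, 47.8, 70.1, 82.7, 86.6 and 46.2 at 2e4, 145.2, 177.3 and 207.7 at 4e4 and 211.1, 238.3 and 284.1 at 6e4. None of the Tfh2 groups overlapped with another, while TfhA_4e4 and Tfh5_4e4 overlapped with each other. The slope was 1.71 (SE 0.0624, edgeR adjusted p = 9.13e-26).

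Ier3 (identifier 15937, chromosome 17, 35821713 to 35822911), an early response gene that protects from apoptosis, had 104.2, 78.7, 101.2, 96.0 and 83.9 CPM in TfhA_4e4 and 69.9, 92.1 and 103.8 CPM (lowest, median and highest) in Tfh5_4e4. Its Tfh2 values were 17.6, 21.5 and 25.5 CPM at 1e4, 44.0, 72.1, 51.7, 86.0 and 57.1 at 2e4, 143.5, 153.2 and 194.0 at 4e4 and 190.9, 226.5 and 245.1 at 6e4. The TfhA_4e4 and Tfh5_4e4 libraries all lay below the lowest Tfh2_4e4 library. The slope was 1.33 (SE 0.0492, edgeR adjusted p = 9.68e-26).

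Hilpda (identifier 69573, chromosome 6, 29272488 to 29275449), a lipid droplet protein that inhibits the lipase ATGL, had 223.0, 228.4, 217.3, 183.8 and 141.2 CPM in TfhA_4e4, and 95.8, 131.9 and 154.7 CPM (lowest, median and highest) in Tfh5_4e4. Within Tfh2 it had 23.4, 30.6 and 34.8 CPM at 1e4, 76.0, 105.5, 86.5, 112.1 and 87.7 at 2e4, 194.7, 217.5 and 234.9 at 4e4 and 266.1, 276.1 and 325.5 at 6e4. In TfhA_4e4, 4 of the 5 libraries were above the highest Tfh5_4e4 library. The slope was 1.27 (SE 0.0467, edgeR adjusted p = 9.13e-26). Errfi1, a feedback inhibitor of the EGF receptor, had a slope of 0.92. Ddit4, an inhibitor of mTORC1, had 0.48, and Ankzf1, a peptidyl-tRNA hydrolase of ribosome quality control, had 0.45. The group means of Wsb1, a ubiquitin ligase adaptor, stayed between 18.8 and 22.7 CPM, and it was called in none of the 11 comparisons.

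**Figure D2:**
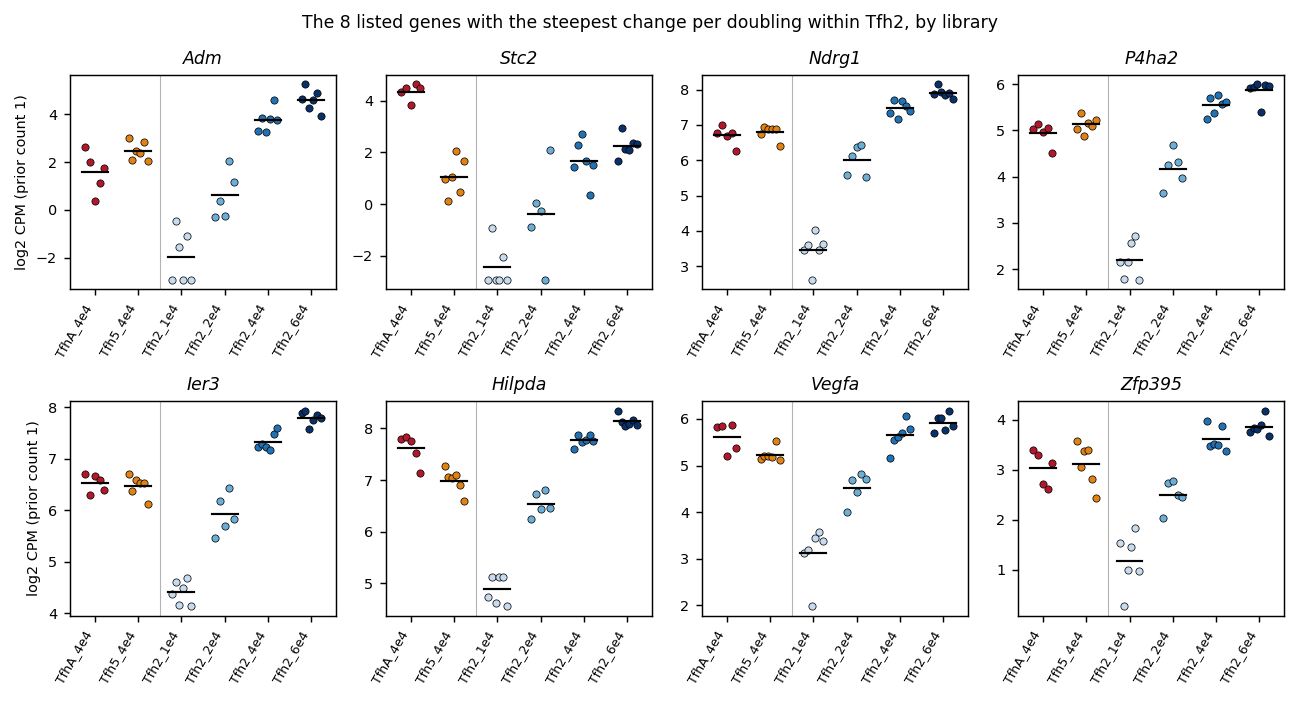
Log2 CPM (prior count 1) of the 8 members with the largest slopes in each of the 34 libraries (points) with the group mean (bar), for TfhA_4e4 and Tfh5_4e4 on the left and the 4 Tfh2 groups on the right of the line. All 8 climb from Tfh2_1e4 to Tfh2_6e4, and the TfhA_4e4 points of Stc2 are above all others. Points at the floor of Adm and Stc2 in Tfh2_1e4 are libraries with 0 counts.

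The rise was spread unevenly over the 3 steps. From Tfh2_1e4 to Tfh2_2e4, 21 of the 33 genes were called higher and 0 lower, against 5.26% called over all genes (4.06% higher and 1.2% lower). From Tfh2_2e4 to Tfh2_4e4, 16 were called higher and 0 lower, against 13% over all genes (7.59% higher and 5.4% lower). From Tfh2_4e4 to Tfh2_6e4, 1 was called higher, Ier3 with a log2 fold change of 0.46 (SE 0.12, edgeR adjusted p = 0.0329). There 1.48% of all genes were called, 0.616% higher and 0.863% lower, and the call of Ier3 was lost in 6 of the 12 fits without 1 library of these groups. At the first step Ankrd37 lost its call in 8 of 11 fits without 1 library and Mxi1 in 3. Higd1a lost it in 2 (Tfh2_1e4 replicate 3 and Tfh2_2e4 replicate 6), Kdm4b in 1 (Tfh2_2e4 replicate 5) and Stc2 in 1 (Tfh2_2e4 replicate 6). Nampt gained a call without Tfh2_2e4 replicate 1 or 2, and Errfi1 without Tfh2_1e4 replicate 2. At the second Errfi1 lost it in 8 of 11 and Kdm4b in 7. Stc2 gained a call there without Tfh2_2e4 replicate 6 or Tfh2_4e4 replicate 5, and Ak4 without Tfh2_2e4 replicate 6 or Tfh2_4e4 replicate 1. P4ha1 gained a call at the third without Tfh2_4e4 replicate 4. The last step covers 0.585 of a doubling, so the steps were also set side by side per doubling. The median of the 28 rising genes was then 0.73 at the first step, 0.57 at the second and 0.23 at the third, and the third was below the first in 24 of them.

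The difference of the third step from the first, per doubling, was tested as a contrast of its own. It was called lower for 4 of the 33 genes and higher for 0, and over all genes 0.343% were called, 0.343% lower and 0% higher. The 4 were Ndrg1 (-1.81, SE 0.295, edgeR adjusted p = 0.00079), P4ha2 (-1.46, SE 0.299, adjusted p = 0.0135), Bnip3 (-1.16, SE 0.241, adjusted p = 0.0151) and Hilpda (-1.01, SE 0.233, adjusted p = 0.0306). Ndrg1 thus climbed by 2.55 per doubling at the first step and by 0.73 at the third. P4ha2 climbed by 2.01 and 0.55, Bnip3 by 1.40 and 0.24, and Hilpda by 1.65 and 0.64. The call of Hilpda was lost in 14 of the 23 fits without 1 Tfh2 library, and 1 of the 4, Ndrg1, was called when libraries outside the Tfh2 code took no part in the fit. Adm had the same climb at the first 2 steps, 3.03 and 3.07 per doubling, and 1.43 at the third, and its difference was not called (adjusted p = 0.642).

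**Figure D3:**
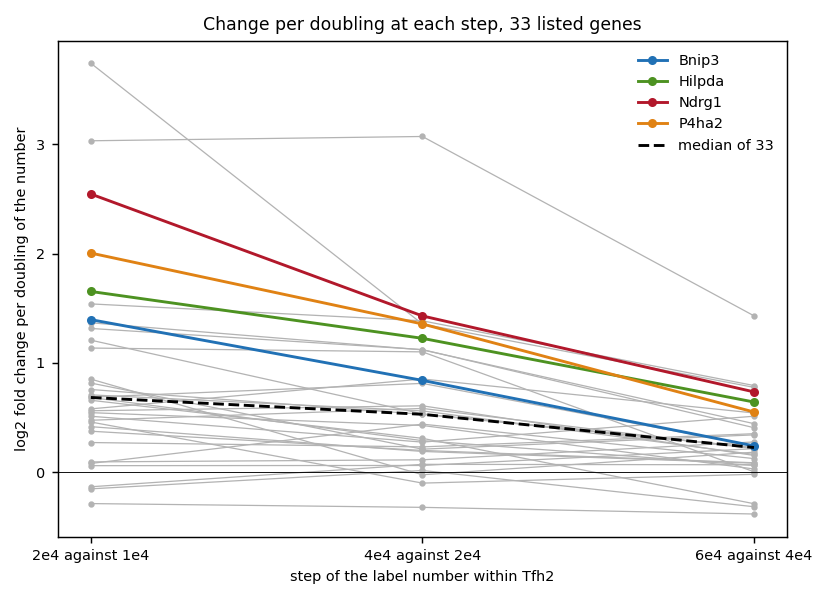
Log2 fold change per doubling of the label number (vertical axis) at each of the 3 steps within Tfh2 (horizontal axis) for the 33 genes (grey lines), with Ndrg1, P4ha2, Bnip3 and Hilpda in colour and the median of the 33 dashed. The coloured lines fall from between 1.40 and 2.55 at the first step to between 0.24 and 0.73 at the third.

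At the shared number 4e4, TfhA cells had less of most of these transcripts than Tfh2 cells. In TfhA_4e4 against Tfh2_4e4, 18 of the 33 genes were called lower and 1 higher, with a median log2 fold change of -0.58. Over all genes 32.8% were called, 17.4% lower and 15.5% higher, with a median of -0.0087. Stc2 was the gene called higher (2.56, SE 0.432, edgeR adjusted p = 5.58e-06). Adm fell by 2.13 on the log2 scale (SE 0.374, adjusted p = 1.15e-05), Plod2 by 1.83 (SE 0.13, adjusted p = 8.05e-16) and P4ha1 by 1.41 (SE 0.123, adjusted p = 5.96e-13). By role, 3 of 5 collagen and peptide enzymes, 3 of 5 mitochondrial proteins (Bnip3l -0.95, Bnip3 -0.91 and Ak4 -0.68) and 4 of 5 oxygenases were lower. Of the oxygenases Kdm7a was at -0.85, Kdm3a at -0.62, Kdm4b at -0.57 and Jmjd6 at -0.30. The lower transcription regulators were 4 of 6, Sap30 (-1.13), Mxi1 (-0.98), Rbpj (-0.85), the DNA-binding partner of Notch, and Zfp395 (-0.58). The lower stress genes were 3 of 7, Ddit4 (-0.83), Ier3 (-0.80) and Ndrg1 (-0.76). Vegfa, Mif, Fam162a and Hilpda, with values between -0.14 and 0.12, were not called. The calls of Jmjd6 (adjusted p = 0.0452) and Zfp395 (adjusted p = 0.0413) were lost in 6 and 5 of the 11 fits without 1 library of these groups. The mitochondrial rRNA share moved with this comparison, at 12.6% to 17.3% in TfhA_4e4 libraries and 8.06% to 11.05% in Tfh2_4e4 libraries. These ranges do not overlap, so the share and the code cannot be told apart. Over all genes 3729 were called without that share as a covariate in the fit and 2720 with it. Of the members 13 were then lower and 1 was higher, and 5 lost their call. The log2 fold changes with the covariate were -0.63 for Ak4, -0.56 for Zfp395 and -0.24 for Jmjd6, close to those without it. P4ha2 stood at -0.44 with it and at -0.60 without it, and Kdm4b at -0.14 with it and at -0.57 without it.

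Fewer members were called between Tfh5 and Tfh2 cells at 4e4, a comparison that shares its Tfh2_4e4 libraries with the one before. In Tfh5_4e4 against Tfh2_4e4, 6 of the 33 genes were called lower and 0 higher, with a median of -0.32. Over all genes 3.11% were called, 1.7% lower and 1.41% higher, with a median of -0.0094. The 6 were Adm (-1.34, SE 0.323, edgeR adjusted p = 0.0108), Ier3 (-0.85, SE 0.121, adjusted p = 1.32e-05), Hilpda (-0.77, SE 0.116, adjusted p = 3.15e-05), Ndrg1 (-0.68, SE 0.144, adjusted p = 0.00277), Mif (-0.45, SE 0.0888, adjusted p = 0.00119) and Fam162a (-0.33, SE 0.0821, adjusted p = 0.0157). They belong to the secreted (Adm and Mif), mitochondrial (Fam162a) and stress and feedback (Ier3, Hilpda and Ndrg1) groups. The call of Fam162a was lost without replicate 5 of Tfh5_4e4.

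In the direct comparison of TfhA and Tfh5 cells at 4e4, members were called in both directions, as were genes over the whole set tested. In TfhA_4e4 against Tfh5_4e4, 11 of the 33 genes were called lower and 5 higher, with a median of -0.12, while 39.5% of all genes were called, 20.4% lower and 19.1% higher. The higher ones were Stc2 (3.25, SE 0.451, edgeR adjusted p = 8.38e-08), Hilpda (0.63, SE 0.121, adjusted p = 3.68e-05), Mif (0.56, SE 0.0928, adjusted p = 2.58e-06), Vegfa (0.41, SE 0.168, adjusted p = 0.0493) and Fam162a (0.34, SE 0.0863, adjusted p = 0.00156). The lower ones were led by Plod2 (-1.78, SE 0.13, adjusted p = 1.44e-15), P4ha1 (-1.23, SE 0.123, adjusted p = 2.46e-11), Plod1 (-1.09, SE 0.403, adjusted p = 0.0282) and Mxi1 (-1.05, SE 0.114, adjusted p = 1.78e-10). Mxi1 (identifier 17859, chromosome 19, 53310128 to 53373293) had 64.0, 43.1, 44.6, 45.3 and 50.5 CPM in TfhA_4e4, against 82.8, 105.8 and 108.7 CPM (lowest, median and highest) in Tfh5_4e4. In Tfh2 it had 52.6, 63.0 and 74.0 CPM at 1e4, 74.7, 99.4, 77.3, 81.1 and 95.6 at 2e4, 80.3, 100.2 and 107.6 at 4e4 and 90.7, 104.4 and 108.0 at 6e4. All TfhA_4e4 libraries of Mxi1 lay below all libraries of Tfh5_4e4 and of the Tfh2 numbers above 1e4. The remaining lower genes were Kdm7a (-0.91), Rbpj (-0.90), Bnip3l (-0.62), Ddit4 (-0.58), Kdm3a (-0.56), Bnip3 (-0.54) and Kdm4b (-0.44). Of the 5 members with the largest slopes, Adm, Ndrg1, P4ha2 and Ier3 were not called here (log2 fold changes of -0.79, -0.08, -0.18 and 0.05), and Adm was called without TfhA_4e4 replicate 1 (-1.14, adjusted p = 0.0251).

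Leaving out single libraries or adding the rRNA share to the fit changed several of these calls. Every TfhA_4e4 library had a higher share (12.6% to 17.3%) than any Tfh5_4e4 library (8.37% to 11.1%). The share and the code thus cannot be told apart. Vegfa and Kdm4b each lost their call in 8 of the 11 fits without 1 library, and Plod1 in 3. With the mitochondrial rRNA share as a covariate 3204 of all genes were called, against 4489 without it. Of the members 8 were then lower and 4 higher, and Vegfa stood at -0.0048 (edgeR adjusted p = 0.993). The others that lost their call were Kdm4b (-0.0029), Plod1 (-0.34) and Kdm3a, whose fold was as large as before (-0.61, adjusted p = 0.0505).

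**Figure D4:**
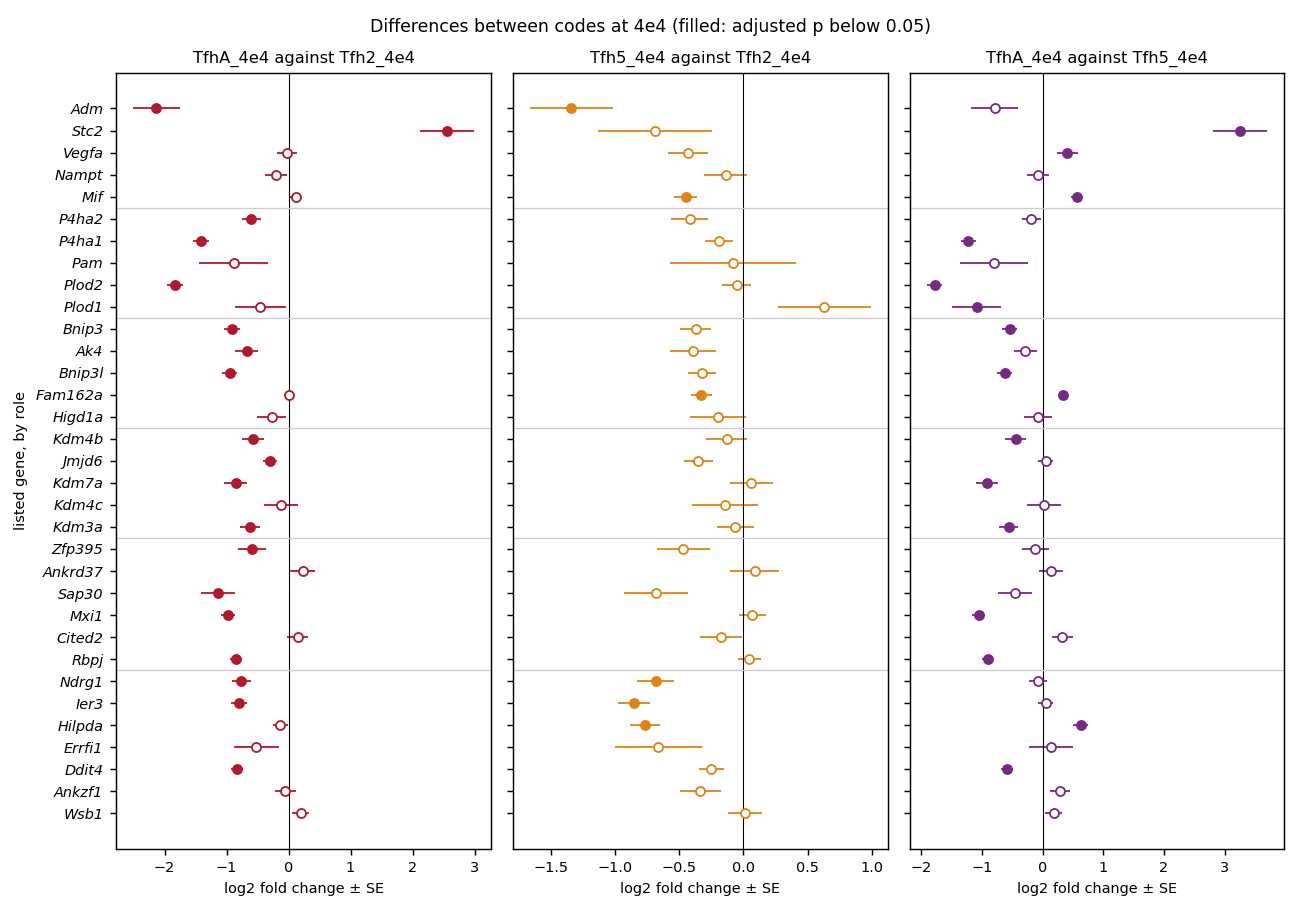
Log2 fold changes ± SE of the 33 genes (rows, by role) for TfhA_4e4 against Tfh2_4e4, Tfh5_4e4 against Tfh2_4e4 and TfhA_4e4 against Tfh5_4e4 (panels with their own horizontal scale), with filled points for adjusted p below 0.05. In the left panel 18 filled points lie left of 0 and Stc2 lies right of it. In the right panel the 3 lower collagen and peptide enzymes lie left of 0, and Stc2, Hilpda, Mif, Vegfa and Fam162a lie right.

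The level in each code was also set against the whole Tfh2 series. In TfhA_4e4 against Tfh2_1e4, 19 of the 33 genes were called higher and 4 lower, with a median of 0.71, and over all genes 41.7% were called, 21.7% higher and 20% lower. The 4 lower ones were Plod2 (-1.97), Plod1 (-1.06), Rbpj (-0.73) and Mxi1 (-0.38). Largest among the higher were Stc2 (7.66), Adm (3.98), Ndrg1 (3.22), P4ha2 (2.76) and Hilpda (2.74), of which Stc2 and Adm rest on 5 and 11 counts in Tfh2_1e4. The calls of Plod1 (without TfhA_4e4 replicate 3 or 5) and Nampt (without replicate 5) hung on single libraries. The mitochondrial rRNA share was 14.8% in TfhA_4e4 and 8.41% in Tfh2_1e4, the highest and lowest group means. Their libraries did not overlap in it, so the share and the group cannot be told apart. With the share as a covariate 2823 of all genes were called, against 4740 without it. Of the members 15 were then higher and 4 lower. Bnip3l (0.19), Nampt (0.12), Plod1 (-0.12), Ankzf1 (0.66) and Errfi1 (1.42) then lost their call, and Kdm7a (-0.86) gained one. In Tfh5_4e4 against Tfh2_2e4, 10 were called higher and 0 lower, with a median of 0.29, and over all genes 11% were called, 5.79% higher and 5.19% lower. These 10 were Adm (1.73), P4ha2 (0.94), Ndrg1 (0.75), Vegfa (0.69), P4ha1 (0.66), Ier3 (0.53), Bnip3l (0.49), Bnip3 (0.47), Hilpda (0.46) and Ddit4 (0.33). Without replicate 6 of Tfh2_2e4, Bnip3 and Ddit4 lost this call and Stc2 gained it (1.96, adjusted p = 0.0161, edgeR). Without replicate 1 of that group Bnip3, Ddit4 and Hilpda lost it, and without replicate 5 Kdm4b gained it. Without a single Tfh5_4e4 library, Ddit4 lost it (replicate 4), and Fam162a (replicate 5) and Zfp395 (replicate 5 or 6) gained it.

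The group means of the 28 rising genes show where each code stood along the Tfh2 series, as a description with no test. In TfhA_4e4 the mean of 12 of the 28 exceeded 2 of the 4 Tfh2 means, among them Adm, Ndrg1, Ier3, Hilpda, Vegfa and P4ha2. A further 7 exceeded only 1 (Ak4, Bnip3, Bnip3l, Ddit4, Higd1a, Kdm4b and P4ha1), and 5 were below every Tfh2 mean (Kdm3a, Kdm7a, Mxi1, Rbpj and Sap30). Ankrd37, Mif and Stc2 were above every Tfh2 mean in TfhA_4e4, and Fam162a was above 3. In Tfh5_4e4 20 of the 28 exceeded 2 of the 4 Tfh2 means. Ankrd37 and Mxi1 were above every one, Kdm7a and Rbpj above 3, and Ankzf1, Higd1a, Mif and Sap30 above 1.

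Of 12 tested genes of HIF and its sensors, 6 rose within Tfh2 and 0 fell, with a median slope of 0.14. Over all genes 46.9% were called for the slope, 24.1% higher and 22.8% lower. Hif1a, the HIF-1 alpha gene, had a slope of 0.46 and means of 250.3 ± 45.1 CPM in TfhA_4e4 (SD, n = 5), 364.6 ± 58.4 in Tfh5_4e4 (n = 6), 210.4 ± 31.5 in Tfh2_1e4 (n = 6) and 485.2 ± 54.3 in Tfh2_6e4 (n = 6). Egln3, a prolyl hydroxylase gene that HIF itself induces, had a slope of 0.65, and Hif3a, an inhibitory family member, had 1.72. In TfhA_4e4 against Tfh2_4e4, Egln1 (-0.81), Hif1a (-0.69) and Egln3 (-0.54) were lower and 0 of the 12 were higher, where 17.4% of all genes were lower and 15.5% higher. In Tfh5_4e4 against Tfh2_4e4, Vhl (-0.44) was the 1 of 12 called, against 3.11% of all genes. HIF is controlled mainly through protein stability, which these libraries do not measure.

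Glucose uptake and glycolysis, the arm of the response left out of the list, gave 17 of 20 genes rising within Tfh2 and 0 falling, with a median slope of 0.51, against 24.1% of all genes higher and 22.8% lower. In TfhA_4e4 against Tfh2_4e4 11 of the 20 were lower and 0 higher, where 17.4% of all genes were lower. In Tfh5_4e4 against Tfh2_4e4 6 were lower and 0 higher, where 1.7% of all genes were lower. Slc2a3, a glucose transporter, had the largest slope of these (2.08), with means of 116.3 ± 14.9 CPM in TfhA_4e4 (n = 5), 146.3 ± 18.6 in Tfh5_4e4 (n = 6), 10.8 ± 1.69 in Tfh2_1e4 (n = 6) and 416.1 ± 28.9 in Tfh2_6e4 (n = 6). The other jumonji genes were lower in TfhA_4e4 than in Tfh2_4e4 in 6 of 14 and higher in 0, led by Kdm6b (-2.77), an H3K27 demethylase, while 32.8% of all genes were called there, 17.4% lower. Against Tfh5_4e4 9 were lower and Riox1 (0.41) was higher, while 39.5% of all genes were called, 20.4% lower and 19.1% higher.

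Stc2, the member that stood highest in TfhA_4e4, is also known as a target of ATF4, the factor of the amino acid and endoplasmic reticulum stress response. Of 18 other ATF4 response genes tested, 16 were higher in TfhA_4e4 than in Tfh2_4e4 and 0 lower (median 1.80), and 16 were higher and 0 lower than in Tfh5_4e4 (median 2.03). Over all genes 15.5% were higher in the first of these comparisons and 19.1% in the second. Cth (4.33) and Chac1 (3.81) differed most from Tfh2_4e4. Within Tfh2 this list went the other way from Stc2, with 1 gene rising and 9 falling (median -0.23), against 24.1% and 22.8% of all genes. Ddit4, which ATF4 can also induce, was lower in TfhA_4e4 than in both other codes at 4e4. The part of ATF4 in the level of Stc2 was not tested.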

How the data were processed

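The sorted T cells gave 3′ RNA libraries (Lexogen, per the labels' protocols), and the authors deposited raw counts per gene identifier for each of 34 libraries. Named in the submitters' processing notes are mm10, featureCounts 1.6.4 and STAR 2.7.2b. Strand setting and multimapping are not given in the sources used here, so overlapping, antisense and paralogous genes carry that uncertainty. Of 27179 identifiers 25275 had a symbol in the GRCm38.p6 annotation; the other 1904 held 48.8% of counts. No 2 libraries were identical. A deposited table that joins the libraries was not used.

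A single edgeR fit (4.0.16, R 4.3.3) covered the 34 libraries and 6 groups after TMM normalization. The filterByExpr filter left 11357 genes. Each of 11 contrasts was tested by a two-sided quasi-likelihood F-test, with the Benjamini-Hochberg adjustment over these genes. SE is the size of the log2 fold change over the square root of F. The fit was also run on simulated counts with known changes. These treat libraries as independent, so they cannot test replicate structure or the mitochondrial rRNA share. CPM uses normalized library totals, which include the 2 identifiers that took 48.3% of all counts, and log2 CPM a prior count of 1. Depth was 4481509 to 9934245 counts per library, and 2292557 to 5343465 without these 2 identifiers.

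The members and lists were chosen with earlier results of these data known, so they lend no independent support to a direction. Per-library values are given for the 8 members with the largest called slopes, up to 4 highest and 4 lowest called in TfhA_4e4 against Tfh5_4e4 and up to 4 with the lowest adjusted p for the difference between steps, all averaging 1 log2 CPM or more. From other lists up to 3 called members with the largest slopes are named. Hif1a, Vhl, Pink1, Cth, Chac1, Kdm6b, Riox1 and the genes behind counts of 5 or fewer were chosen after their values were seen. Libraries sharing a replicate number deviated together (r above 0.1 around the group means) in 15 of 80 pairs. The mean r was 0.0494 for a shared number and 0.0288 for other numbers of the same range (replicates 1 to 3 or 4 to 6). Across these ranges it was -0.0354. These values cannot decide whether a shared number pairs samples, as no chance rate was computed. Samples were not paired in the reported fit. Alternatives were DESeq2 (1.42.0) size factors and Wald test, limma-voom (limma 3.58.1), no filter, only the groups compared, a replicate block, replicate ranges, the mitochondrial rRNA share, and left-out libraries or identifiers.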

Additional observations from a re-analysis of the deposited data

Results flagged for a closer look

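In 15 of 198 combinations of a member and a group, 1 library stood far from the rest of its group by Dixon's criterion, which chance alone meets in about 5% of groups. Tfh2_1e4 replicate 3 was low for Ak4 (4.05 CPM), Higd1a (6.02 CPM) and Vegfa (3.84 CPM). In Tfh2_6e4, replicate 1 was high for Fam162a (380.8 CPM) and Hilpda (325.5 CPM), replicate 2 was high for Ankzf1 (26.4 CPM) and replicate 4 was low for P4ha2 (41.9 CPM). In Tfh2_4e4, replicate 4 was high for Higd1a (36.2 CPM) and low for Mif (1007 CPM). In Tfh2_2e4, replicate 5 was high for Plod1 (6.43 CPM). In TfhA_4e4, replicate 6 was low for Bnip3 (148.0 CPM) and replicate 3 was low for Kdm7a (13.1 CPM). In Tfh5_4e4, replicate 4 was high for Ddit4 (1081 CPM), replicate 2 was low for Mxi1 (82.8 CPM) and replicate 5 was high for Vegfa (46.0 CPM).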

How the results depend on the processing

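Of the values called in the reported fits, 2238 of 2357 kept direction and call when 1 library was left out and 119 lost the call. Under the other alternatives 1953 of 2085 kept both, 131 lost the call and 1 changed sign, Vegfa in TfhA_4e4 against Tfh5_4e4 with the mitochondrial rRNA share as a covariate (-0.0048). Of values not called, 31 and 63 became called, and 137 and 90 changed sign without being called in either fit. The causes were not tested.

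Called members in TfhA_4e4 against Tfh2_4e4 were 19, and 12 with replicates 1 to 3 alone. Over all genes the same fits called 3729 and 2300. In Tfh5_4e4 against Tfh2_4e4 called members were 6, with 10 under the replicate block and 3 with replicates 1 to 3 alone. Over all genes these fits called 353, 584 and 96. In Tfh5_4e4 against Tfh2_2e4 called members were 10, with 6 and 4 in replicates 1 to 3 and 4 to 6 alone. All genes called there were 1247, 470 and 616. For Tfh2_2e4 against Tfh2_1e4 called members were 21, with 11 in replicates 1 to 3 alone, and all genes called were 597 and 141. In Tfh2_6e4 against Tfh2_4e4 the member count was 1, with 2 by DESeq2, 4 by limma-voom and 4 under the replicate block. It was 2 with the replicate ranges as a factor and 0 within either range alone. It was also 0 without Tfh2_4e4 replicate 3 and Tfh2_2e4 replicate 6, and 0 to 2 without single libraries. Over all genes 168 were called, with 275 by DESeq2, 181 by limma-voom, 381 under the replicate block and 303 with the range factor. Replicates 1 to 3 and 4 to 6 alone gave 23 and 34 genes, and leaving out both named libraries gave 90. Leaving out single libraries gave 55 to 269. For the difference between steps the member count was 4, with 1 when only the Tfh2 groups were fitted. It was 0 and 1 in replicates 1 to 3 and 4 to 6 alone. All genes called in these 4 fits were 39, 8, 3 and 10. Fits of 1 range hold fewer samples. Other member counts stayed within 1.5 times the reported ones. When 1 library was left out they were 17 to 19 in TfhA_4e4 against Tfh2_4e4. They were 13 to 15 in TfhA_4e4 against Tfh5_4e4 and 27 to 31 for the slope. Nothing in the labels says that a shared number pairs samples. As a hint from the data, 16 of 34 libraries had their best correlation with a library of their number. The share expected by chance was not computed. Members with low counts in every group, Pam, Plod1, Errfi1 and Kdm4c, are among the less precise. So are Stc2 and Adm, with 5 and 11 counts in Tfh2_1e4.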
